A study of Mus musculus with 4 samples.

Results

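The genes described here are 10 members of the Wnt signalling pathway, namely the ligands Wnt2, Wnt4 and Wnt5a, the secreted antagonists Sfrp1, Sfrp2, Dkk2 and Dkk3, the receptor Fzd1, the transcription factor Lef1 and the feedback target Axin2. They were chosen by name, as every non-control probe whose gene name was one of these symbols, and they make up 10 of the 26715 genes on the array, with 14 probes. The cells were IMS/N, hepatic stellate cells from the liver of normal 129/Sv mice that had been immortalized with SV40, and all groups shared this background. The 4 groups were untreated cells, cells given recombinant murine IL17A, cells given medium from cultured adipose tissue-derived stem cells (ADSC medium), and cells given IL17A and ADSC medium. The stem cells came from inguinal subcutaneous fat of male C57BL/6J mice aged 8 to 10 weeks. The study asked what ADSC medium does to stellate cells exposed to the cytokine IL17A. Each group was measured on 1 array, so no difference has a replicate check and no test was possible. "Higher" and "lower" therefore describe 2 arrays, and 2-fold is a limit of size only.

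Wnt proteins are secreted lipid-modified ligands that bind Frizzled receptors. In the canonical branch the receptors act with the co-receptors Lrp5 and Lrp6, beta-catenin escapes degradation and enters the nucleus, and it works there with the transcription factors of the TCF/LEF family. Other Wnt proteins, with Wnt5a as the best known, mostly act through branches that do not need beta-catenin. Secreted frizzled-related proteins (Sfrp) bind Wnt proteins outside the cell, and Dickkopf proteins (Dkk) mostly act on the Lrp co-receptors. In the liver, Wnt signals set the zonation of hepatocytes, and Wnt signalling in stellate cells has been studied in their activation to matrix-producing myofibroblasts.

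The ligand results below rest on short probes, and the probes of Wnt4 and Wnt5a that read coding sequence across a splice junction are shown because they cover the same part of related proteins. The Wnt4 probe lies at chr4:136851690-136852258 and this Wnt5a probe at chr14:29331746-29335708 (mm9, forward strand, 5′ to 3′). Each is 60 bases long but spans 569 and 3963 bases of genome, so each joins exons across an intron. Capitals mark the bases that are identical where the probes are aligned without gaps.
Wnt4: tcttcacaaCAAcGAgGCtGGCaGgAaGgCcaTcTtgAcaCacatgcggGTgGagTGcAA
Wnt5a: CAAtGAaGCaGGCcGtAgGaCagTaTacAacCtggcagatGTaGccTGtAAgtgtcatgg
Of 51 aligned bases 25 were identical, or 49.0%, so the probes differ at about every other aligned base.

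The scale throughout is the log2 of the quantile-normalized signal of a probe, which orders the 4 arrays for that probe and does not rank different genes. Of the 10 members, Sfrp2, Fzd1, Lef1, Wnt4 and Wnt5a were well above background on all 4 arrays, by the scanner software's own flag. Wnt2 and Dkk2 were so on some arrays. Sfrp1, Dkk3 and Axin2 were not well above background on any array and have no differences here. For spots brighter than background on all 4 arrays the scanner software put the error of a signal between 10.0% and 16.3%, the highest being the second Lef1 probe with IL17A. Among other probes printed several times per array, the spots differed with an SD of 0.262 for a log2 difference at levels below 5, of 0.138 from 5 to 7 and of 0.085 above 7 (the technical SD). These values cover the array only and hold no variation between cultures.

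**Figure D1:**
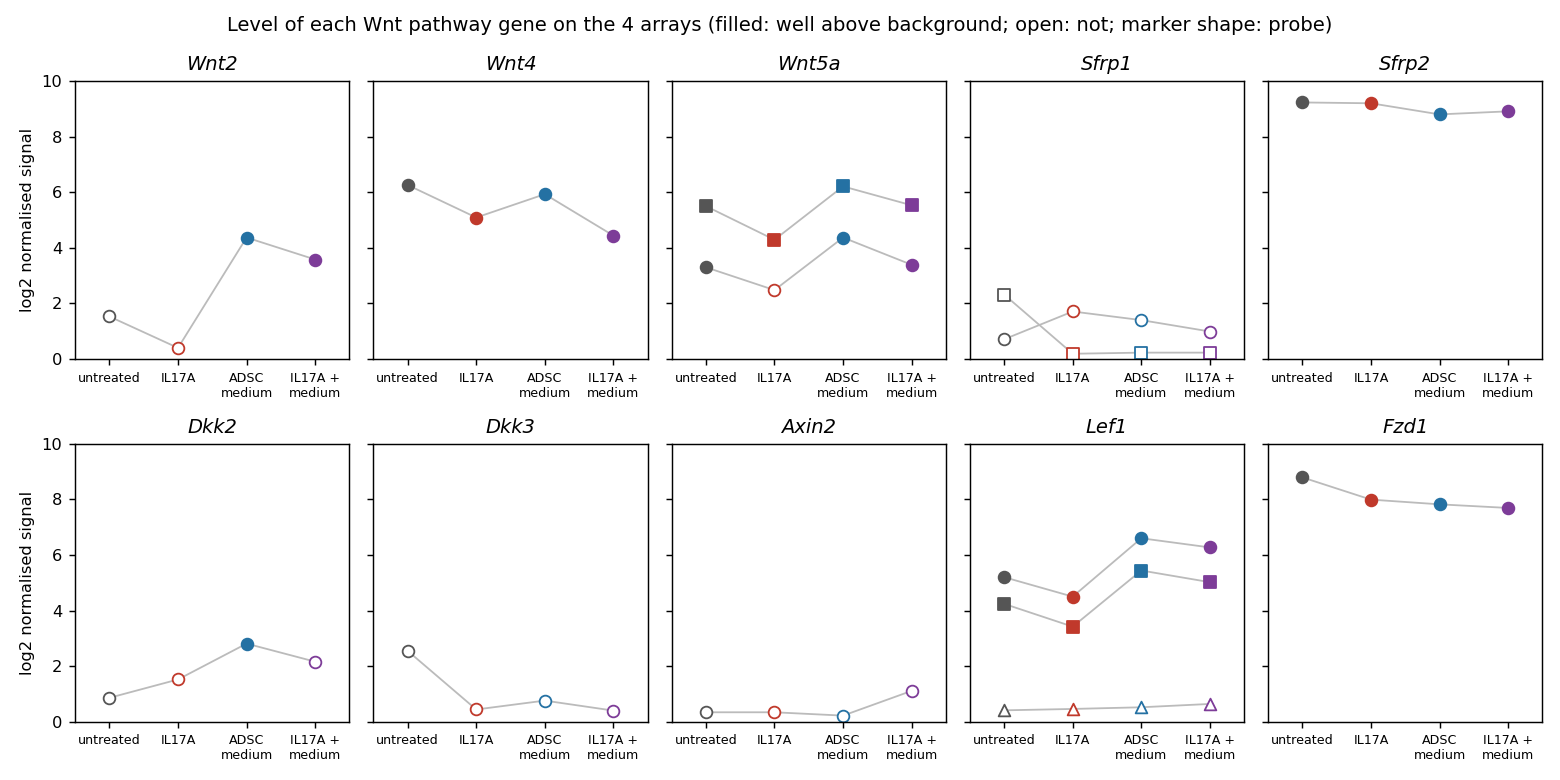
Log2 quantile-normalized signal (y axis) of all 14 probes of the 10 genes on the 4 arrays (x axis: untreated, IL17A, ADSC medium, IL17A + ADSC medium), 1 panel per gene, 1 point per probe and array with the shape telling probes apart and lines joining the points of a probe, filled where the spot was well above background and open where it was not. Wnt4 and Wnt5a are lower on both IL17A arrays than on the arrays without IL17A from the same slide, Lef1 is highest on the 2 arrays with ADSC medium, and Sfrp1, Dkk3 and Axin2 have open points only.

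Wnt4, a ligand with roles in kidney and gonad development, was lower with IL17A whether ADSC medium was present or not. Its log2 level was 6.26 untreated and 5.09 with IL17A, and on the medium arrays 5.93 without and 4.44 with IL17A. The array with both agents was the lowest and untreated the highest. Its level was 2.26-fold lower with IL17A than without it in the absence of medium (log2 difference -1.17), and 2.81-fold lower in its presence (-1.49). Slide 1 held the arrays without medium and slide 2 those with it, so both of these comparisons were made within a slide and with no shared array. Because whole cultures were measured, fewer cells that express a gene and less RNA per cell cannot be told apart. With medium the level differed less, by -0.33 without IL17A and by -0.65 with it.

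Wnt5a, the ligand best known for beta-catenin-independent signals, was lower with IL17A and higher with ADSC medium. Its brighter probe, at chr14:29340427-29340486, had a log2 level of 5.50 untreated, 4.29 with IL17A, 6.21 in medium alone and 5.53 with both. The level with both agents thus lay within 0.03 of the untreated level, with the IL17A array below and the medium array above. IL17A went with a 2.31-fold lower level without medium (-1.21) and a 1.59-fold lower level with it (-0.67). Medium went with a 1.63-fold higher level without IL17A (0.70) and a 2.36-fold higher level with it (1.24). The junction probe shown above had levels of 3.30, 2.48, 4.37 and 3.39 in the same order, and the IL17A spot was not well above background. It gave the same directions, at least 1.47-fold lower with IL17A and 2.10-fold higher with medium. For medium without IL17A the 2 probes put Wnt5a on different sides of the 2-fold limit, and for IL17A without medium the limit from the junction probe does not settle on which side it lies.

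Wnt2, a canonical ligand produced by liver endothelial cells, was well above background only on the arrays with ADSC medium. Its probe, at chr6:17939284-17939343 on the reverse strand, read 4.37 with medium and 3.58 with both, against 1.53 in untreated cells and 0.40 with IL17A. Where a spot was not well above background, a fold is given as a lower limit, set against the higher of its own level and the lowest level well above background on that array, which was 2.34 for the untreated array, 2.74 for IL17A, 2.47 for ADSC medium and 2.37 for both. On that scale Wnt2 was at least 4.07-fold higher with medium than in untreated cells, and at least 1.79-fold higher with both than with IL17A. Between the medium arrays the level with IL17A was 1.72-fold lower (-0.79). The 2 medium arrays were the only arrays on slide 2, so for Wnt2 and for every other medium difference, effects of medium and of slide cannot be told apart. Of the 6 endothelial markers, Kdr (3.94, 3.5, 4.03 and 3.31) and Stab2 (3.85, 3.83, 3.65 and 3.58) were well above background on every array, and Pecam1, Cdh5, Lyve1 and Tek on none. The log2 of their summed signal was 5.15, 4.99, 5.14 and 4.85 in the order untreated, IL17A, medium and both, and their part in the Wnt2 result was not tested.

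Sfrp2, a secreted Wnt-binding protein of mesenchymal cells, was the only antagonist among the 10 genes that was well above background on all arrays, and it varied least of the 5 members measured on all of them. Its probe at chr3:83577864-83577923 read 9.23 untreated, 9.20 with IL17A, 8.80 in medium alone and 8.91 with both. The IL17A differences of -0.03 without medium and 0.11 with it were of the size of the technical SD at this level, which is 0.085. Medium went with a 1.34-fold lower level without IL17A and a 1.22-fold lower level with it.

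Dkk2, a Dickkopf protein that can inhibit or, in some settings, activate the canonical branch, was well above background with ADSC medium alone, at 2.81. The other arrays read 0.86 untreated, 1.52 with IL17A and 2.16 with both, none of them well above background. The medium level was therefore at least 1.38-fold above the untreated one and at least 1.36-fold above that with both agents. Sfrp1 had 2 probes, and their log2 levels ran from 0.19 to 2.32 with no spot well above background. Dkk3, a divergent Dickkopf family member, read between 0.40 and 2.55 and was likewise dim on every array. The authors' deposited table of probes for IL17A over untreated holds 861 of all 41174 probes. It contains 1 of the 14 member probes, an Sfrp1 probe, and 304 of its probes, or 35.3%, were not well above background on the IL17A array. On the deposited signals that Sfrp1 probe read 1.77 in untreated cells and 2.85 with IL17A, with software errors of 69.1% and 43.1%.

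Fzd1, a Frizzled receptor, had its highest level in untreated cells. The probe at chr5:4754003-4754062 on the reverse strand read 8.79 untreated, 7.99 with IL17A, 7.82 in medium alone and 7.69 with both. All 3 treated arrays thus lay close together and below the untreated array. Either agent alone went with a lower level, 1.74-fold for IL17A (-0.80) and 1.97-fold for medium (-0.98), while both together went with a 2.15-fold lower level (-1.10). Added to medium, IL17A made a difference of -0.13, and medium added to IL17A one of -0.30. For Fzd1 the IL17A difference with medium minus that without was 0.68 on the log2 scale, beside 0.54 for Wnt5a, 0.38 for Lef1, 0.14 for Sfrp2 and -0.32 for Wnt4. These differences of differences rest on 4 arrays and were not tested, and their order depends on the scaling. Scaled to the array median, the IL17A differences of Fzd1 were -0.58 without medium and -0.30 with it, and those of Wnt5a -1.16 and -0.77.

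Lef1, a TCF/LEF transcription factor and itself a known target of canonical Wnt signalling, was higher on both arrays with ADSC medium than on either array without it. Its brightest probe, which spans 18162 bases at chr3:130907851-130926012 and so crosses at least 1 intron, read 5.20 untreated, 4.50 with IL17A, 6.60 with medium and 6.27 with both. Medium went with a 2.63-fold higher level without IL17A (1.40) and a 3.42-fold higher level with it (1.77), and both agents together stood 2.10-fold above untreated. IL17A went with a 1.63-fold lower level without medium and a 1.25-fold lower level with it. A second probe at chr3:130927036-130927095 read 4.24, 3.42, 5.44 and 5.02 in the same order. It gave 2.30-fold and 3.03-fold for medium without and with IL17A, so the 2 bright probes had the same order. For both agents against untreated it gave 1.72-fold (0.78), under the 2-fold limit, and the mean of the probes gave 0.92. Another probe, at chr3:130820056-130820115, which is named only by an Ensembl transcript, was not well above background on any array. Axin2, a scaffold of the beta-catenin destruction complex that is widely used as a readout of canonical signalling, was not well above background either, with levels of 0.34, 0.34, 0.22 and 1.11. Its single probe lies at chr11:108811980-108812039, and what level of Axin2 mRNA it could have detected is unknown.

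**Figure D2:**
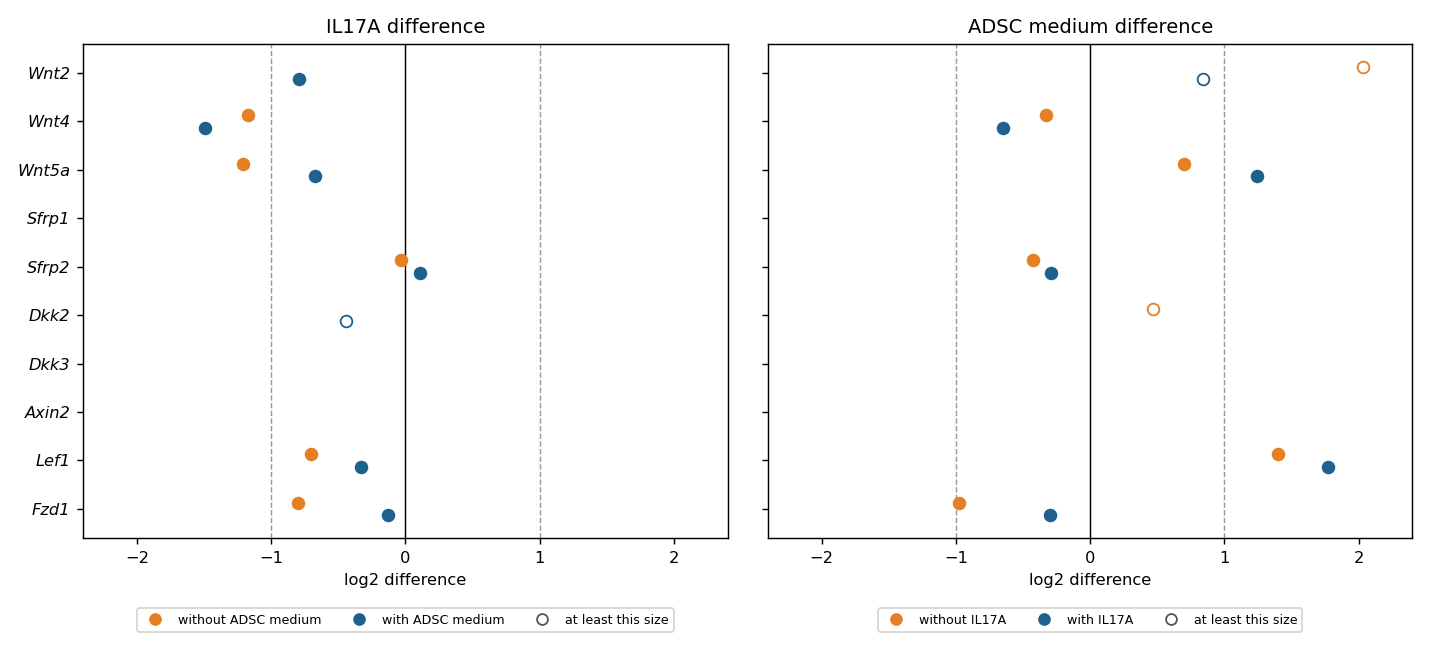
Log2 difference (x axis) for each of the 10 genes (y axis), for IL17A without and with ADSC medium (left) and for ADSC medium without and with IL17A (right). Filled points are measured on both arrays, open points are lower limits of the size, dashed lines mark 2-fold, and genes without a point were not well above background on the arrays compared. Wnt4 lies at -1.17 and -1.49 on the left, and Lef1 at 1.40 and 1.77 on the right.

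Counted over the members, IL17A against untreated put 2 of the 5 that could be compared at least 2-fold lower (Wnt4 and Wnt5a) and none higher, against 2.29% lower and 2.17% higher of all genes compared. With medium present, IL17A put 1 of 7 lower (Wnt4) and none higher, against 1.82% and 2.86% of all genes. Medium against untreated put 2 of 7 higher (Lef1 and Wnt2) and none lower, against 2.45% and 2.98% of all genes. Medium added to IL17A put 2 of 6 higher (Lef1 and Wnt5a) and none lower, against 3.22% and 3.11%. Both agents against untreated put 2 of 6 higher (Lef1 and Wnt2) and 2 lower (Wnt4 and Fzd1), with 3.39% and 4.29% of all genes. The members' median difference for IL17A without medium was -0.80 over the 5 measured genes, with all 5 below 0, beside an all-gene median of 0.00. With medium it was -0.50 over 6 genes, of which 5 were below 0, beside -0.03. The members were chosen with earlier results of these arrays known, and members that pass the brightness rule only on their brighter array had to differ, so these counts describe the genes and are no test of them. When the background was corrected by the normexp method in place of the scanner software's subtraction, no member was 2-fold different in any of the 5 comparisons, and the share of all genes 2-fold different in either direction was between 0.603% and 1.88%.

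The other ligands on the array were taken from a list of 96 Wnt pathway genes that includes the 10 members. Of 19 ligand genes, 9 were well above background on all arrays, 4 on some and 6 on none. Wnt10a, a canonical ligand of ectodermal organs, had the largest IL17A difference of the ligands measured on both arrays. It read 6.57 untreated, 4.30 with IL17A, 6.87 in medium alone and 5.05 with both. Both IL17A arrays were thus below both arrays without IL17A, 4.82-fold lower without medium and 3.52-fold lower with it. Wnt6 read 5.81, 5.05, 6.29 and 5.44 in the same order, and its second probe 5.71, 4.44, 5.81 and 4.49, so it too was lower on each IL17A array than on its partner from the same slide. Wnt9a read 5.46, 4.69, 5.47 and 5.09, again with the lower level of each pair on the IL17A array.

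Other ligands were dim or differed less between the IL17A pairs. Without medium, Wnt1 and Wnt5b were the measured ligands above 0 with IL17A, at 0.21 and 0.16. Wnt3, a canonical ligand, was well above background only with IL17A, at 4.06 on 1 spot, which puts it at least 3.30-fold above untreated and at least 3.24-fold above both agents. Its second probe was not well above background on any array. Wnt7a was above background in untreated cells alone, at 4.22, and was at least 2.79-fold lower with IL17A, 3.37-fold with medium and 3.62-fold with both. Wnt2b, a close relative of Wnt2, was above background only with medium alone, at 3.73, at least 2.61-fold above untreated and at least 2.57-fold above both agents. For Wnt3, Wnt7a and Wnt2b each statement rests on a single bright spot. Wnt11, a ligand of beta-catenin-independent signals, read 4.08, 3.97, 5.25 and 4.70, which was 2.25-fold higher with medium than untreated.

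Over the ligands as a group, IL17A without medium put 4 of 11 comparable genes at least 2-fold lower and 1 higher, against 2.29% and 2.17% of all genes. With medium it put 3 of 11 lower and none higher, against 1.82% and 2.86%. Wnt7a and Wnt3 in the first of these counts, and Wnt2b in the second, were limits that passed on their brighter array alone. Of the ligands measured on both arrays, 7 of 9 were below 0 without medium, with a median of -0.76, and 10 of 10 were below 0 with medium, with a median of -0.61 and a range from -1.81 to -0.19. Of all genes, 49.2% and 57.1% were below 0. When each array was scaled to its 75th percentile instead, these ligand counts were 9 of 9 and 8 of 10, and with scaling to the median, which moves the median of all genes to 0.21 and -0.24, 9 of 9 and 8 of 10 ligands lay below the all-gene median. With normexp background correction the counts were 6 of 9 and 10 of 10 with medians of -0.31 and -0.19, without a filter on dim probes 12 of 19 and 16 of 19 with medians of -0.11 and -0.38, and with RefSeq-named probes only 6 of 8 and 10 of 10 with medians of -0.44 and -0.67. Medium put 3 of 12 ligands higher and 1 lower without IL17A, against 2.45% and 2.98% of all genes. Of these only Wnt11 was measured on both arrays, while Wnt2, Wnt2b and Wnt7a were limits that passed on their brighter array alone. The median of the 9 measured was 0.30, beside 0.04 for all genes. It was 0.07 with normexp, 0.10 with RefSeq-named probes and 0.01 over 19 ligands without the filter.

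**Figure D3:**
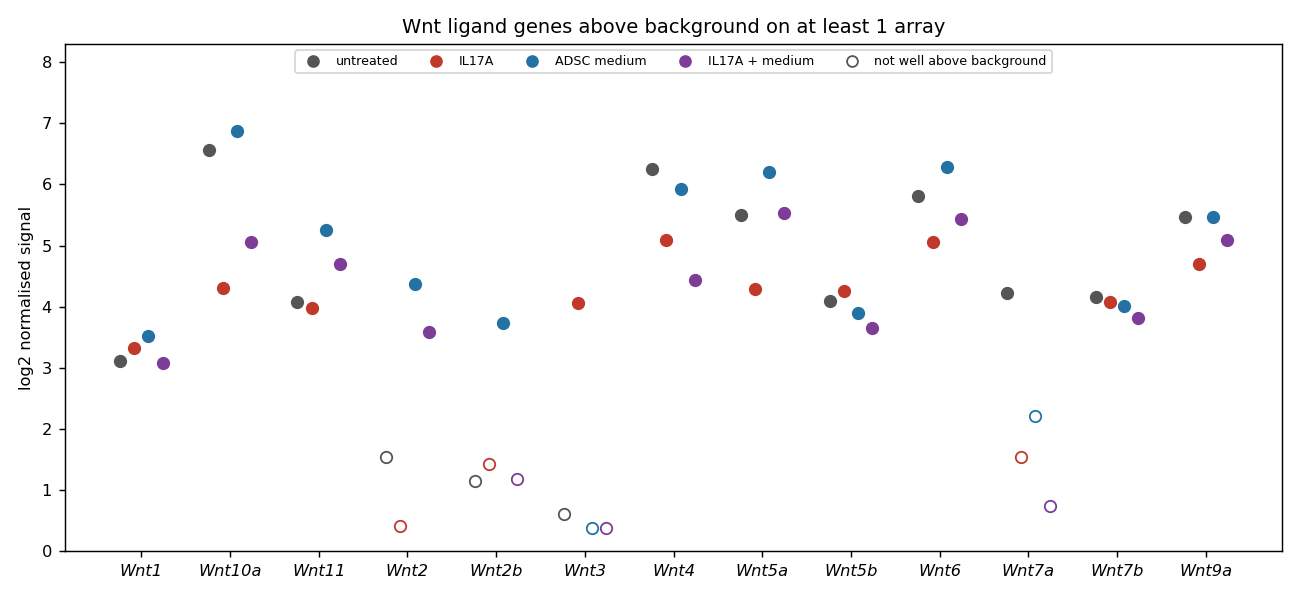
Log2 quantile-normalized signal (y axis) of the Wnt ligand genes that were well above background on at least 1 array (x axis: genes), with 1 point per array in its colour, filled points well above background and open points not. Wnt4, Wnt6, Wnt9a and Wnt10a are lower on each IL17A array than on the array without IL17A from the same slide, and Wnt3 has 1 filled point, with IL17A.

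Markers of other cell types were read beside these ligand values. Of the 4 cholangiocyte markers, Krt19, Krt7 and Sox9 were well above background on every array and Epcam on none, and the log2 of their summed signal was 10.00 untreated, 9.15 with IL17A, 10.15 with medium and 9.25 with both. Krt19 alone read 9.38, 7.99, 9.36 and 7.14. Krt7 read 5.25, 4.65, 4.95 and 4.46, while Sox9 differed little with IL17A, at 8.32, 8.15, 8.81 and 8.79. The summed signal of the 4 mesothelial markers was 14.04, 13.32, 13.40 and 12.85, nearly all of it from Msln, while Upk3b and Gpm6a were not well above background and Wt1 was so with IL17A alone, at 3.12. The summed signals of both lists were lower on the IL17A arrays, as most ligands were. So was that of the stellate cell markers, at 16.63, 16.05, 16.41 and 16.01 in the same order. Within medium, however, Pdgfrb (10.55 without and 10.78 with IL17A) and Lhx2 (8.03 and 8.19) were higher with IL17A, while Acta2, Col1a1 and Vim were lower. The endothelial and adipose sums were lower too, while the macrophage and hepatocyte sums were higher, the hepatocyte one with no marker well above background. The part of these cell types in the ligand result was not tested. Of the stellate cell markers, Acta2, Col1a1, Vim, Pdgfrb and Lhx2 were well above background on all arrays, Gfap, Reln and Hand2 on none, and Lrat with both agents alone. Col1a1 read 15.02, 14.14, 14.36 and 13.95 in the order untreated, IL17A, medium and both. The 4 hepatocyte markers on the array were not well above background anywhere. Of the 5 macrophage markers, Cd68 and Csf1r were well above background on every array, Adgre1 and Clec4f on none and Ptprc with both agents alone, and the summed signal was between 6.11 and 6.92. Of the 5 markers of adipocytes or adipose stromal cells, Pparg (8.94, 8.28, 9.19 and 8.69) and Pi16 (3.89, 4.23, 4.20 and 4.12) were well above background on every array, and Adipoq, Plin1 and Dpp4 on none. The log2 of their summed signal was 8.99, 8.39, 9.25 and 8.76, and their part in the medium differences was not tested.

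Each gene below is given by its brightest probe unless another is named. Of 14 secreted antagonists, 8 were not well above background on any array, Dkk1, Dkk4, Frzb, Wif1, Sostdc1 and Notum among them. Only 4 to 6 of the 14 could be compared, depending on the comparison. None was 2-fold different, beside 4.46% to 7.68% of all genes per comparison. Of the 17 receptor genes, 14 were measured on all arrays. Among these Fzd9 was higher with medium, at 4.66 untreated, 5.36 with IL17A, 5.67 with medium and 5.95 with both, 2.01-fold for medium alone and 2.44-fold for both agents against untreated. Fzd10 read 3.01, 3.53, 3.41 and 2.22 and was not well above background with both agents, at least 2.06-fold lower than with medium. Fzd1 and Fzd9 thus stood on opposite sides of untreated when both agents were given. The probes of Fzd7 disagreed in size for medium without and with IL17A. Its brightest probe differed by -0.49 and -0.43, and a dimmer one by -1.22 and -1.19, past the 2-fold limit. Of the co-receptors, Lrp5 had medium differences of 0.70 and 0.62 without and with IL17A, and Lrp6 of -0.61 and -0.57.

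The R-spondin proteins strengthen Wnt signals by keeping Frizzled receptors at the cell surface. Rspo2 read 4.46 untreated, 3.39 with IL17A, 4.05 with medium and 2.49 with both, the last not well above background. It was 2.11-fold lower with IL17A without medium and at least 2.96-fold lower with it. A second Rspo2 probe was not well above background on any array. Rspo1 was well above background only with both agents, at 3.61, at least 2.20-fold above medium alone, which rests on 1 probe on 1 array. The R-spondin receptor Lgr5 was not well above background, whereas Lgr4 was so on every array.

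All 10 cytoplasmic components were measured on every array and none was 2-fold different in any comparison by its brightest probe, although a second Csnk1e probe gave 1.07 for IL17A without medium. Ctnnb1, which encodes beta-catenin, read 11.81, 11.79, 11.49 and 11.54 in the order untreated, IL17A, medium and both, while a dimmer probe of it gave 0.77 for IL17A with medium, against 0.06. Over all genes, 4.46% to 7.68% were 2-fold different per comparison, so few or none are to be expected in lists of 10 or 12 genes. Of the 12 nuclear factors, Lef1 alone was 2-fold different. Its family member Tcf7 read 5.69, 5.36, 6.51 and 6.01, with medium differences of 0.82 and 0.65, the same direction as Lef1 but below the limit. Tcf7l1 differed by 0.07 and 0.18. The probes of Wls, which carries Wnt proteins to the cell surface, disagreed. The brighter one differed by -0.36 and -0.11 with IL17A and by -0.72 and -0.47 with medium, and the other by -0.66 and 0.98 and by -1.32 and 0.32.

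Of 13 genes listed as targets, Axin2, Nkd1, Sp5, Tnfrsf19 and Cdx1 were not well above background on any array, and the measured ones went different ways. Ccnd1, the cell cycle gene cyclin D1, read 11.17 untreated, 9.76 with IL17A, 11.30 with medium and 10.57 with both, lowest on the IL17A arrays and 2.67-fold lower without medium. Apcdd1, a target that encodes a Wnt inhibitor, read 11.14, 10.05, 10.81 and 9.90, again lower on each IL17A array, by -1.09 and -0.91. Its other probe gave -0.73 for IL17A without medium, which is under 2-fold. Myc read 10.78, 11.40, 11.80 and 12.02, and was 2.03-fold higher with medium than untreated by this probe, while 2 other probes gave 0.92 and 0.93. Ccn5 read 9.90, 10.06, 8.87 and 9.17 and was 2.04-fold lower with medium. These genes have other regulators besides Wnt signals, and as a list the targets had a median IL17A difference of 0.00 without medium and -0.13 with it.

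**Figure D4:**
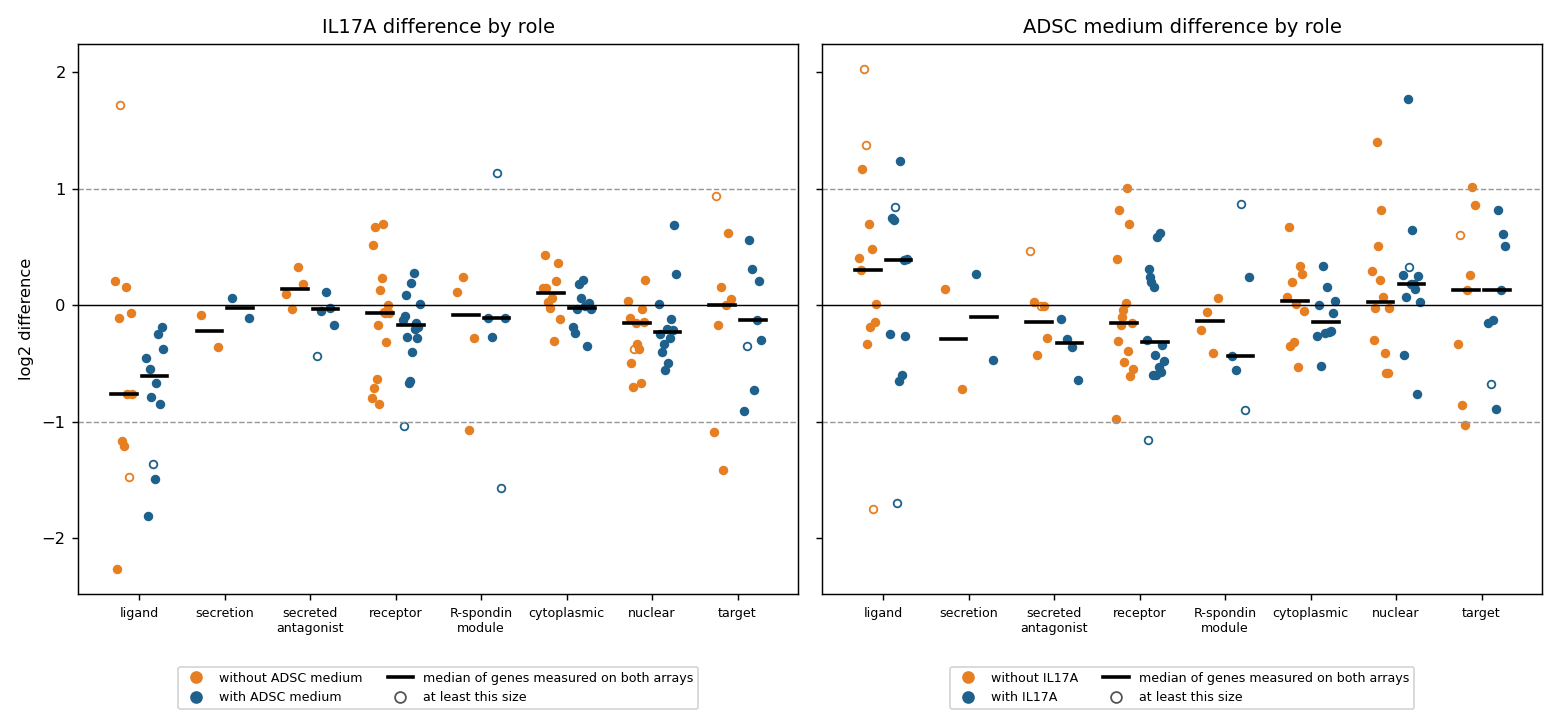
Log2 difference (y axis) of each gene of the 96-gene Wnt list by role (x axis), for IL17A (left) and ADSC medium (right), each without and with the other agent. Filled points are measured on both arrays, open points are lower limits of the size, short bars are medians of the measured genes, and dashed lines mark 2-fold. The ligand medians for IL17A are -0.76 and -0.61, whereas the cytoplasmic ones are 0.11 and -0.02.

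Over the 96 genes, IL17A without medium put 7 of 67 comparable genes lower and 1 higher (2.29% and 2.17% of all genes), and with medium 5 of 68 lower and 1 higher (1.82% and 2.86% of all genes). The pairs of arrays behind these counts share no array. Without medium Wnt7a and Wnt3, and with medium Wnt2b, Fzd10, Rspo2 and Rspo1, were limits that passed on their brighter array alone. Of the 60 list genes well above background on all 4 arrays, 5 and 2 were 2-fold different in these pairs, beside 2.81% and 3% of all such genes. In 64 genes that could be compared in both pairs, 31, or 48.4%, were lower with IL17A in both and 10, or 15.6%, higher in both, beside 34.2% and 27.7% of all 15127 such genes. Wnt4, Wnt10a and Rspo2 were at least 2-fold lower in both pairs, which is 4.69% of the list, beside 0.516% of all genes. For Rspo2 the value with medium was such a limit. Medium put 6 of 69 genes higher and 2 lower without IL17A (2.45% and 2.98% of all genes). With IL17A it put 2 of 67 higher and 2 lower, which is near the all-gene shares of 3.22% and 3.11%. Scaled to the 75th percentile, these splits were 4 higher and 3 lower, and 4 higher and 1 lower. Lef1 was the only gene of the list at least 2-fold higher in both medium pairs, 1.54% of 65 genes, beside 0.554% of all genes. Both agents against untreated put 5 of 67 higher and 6 lower (3.39% and 4.29% of all genes). The counts for medium and for both agents also hold limits that passed on the brighter array alone, among them Wnt2, Wnt7a and Fzd10. The authors' deposited table for IL17A over both agents holds 1193 of all 41174 probes. None of the 14 member probes is among them, which at that share says little about the members. That table holds 10 of the 159 probes of the 96 genes, among them Rspo2, Fzd10 and Wnt7a. Of these 10, 3 were not well above background on the IL17A array, as were 346, or 29%, of all probes in the table.

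The sequences just upstream of Lef1 and Wnt4 are shown because Lef1 was 2-fold different in both medium pairs and Wnt4 in both IL17A pairs. They come from RefSeq and cover 250 bases before an annotated start on GRCm38.p6, for Lef1 the most upstream of 4, Lef1 at chr3:131110047-131110296 and Wnt4 at chr4:137277385-137277634, both on the forward strand, with CpG pairs in capitals.
Lef1: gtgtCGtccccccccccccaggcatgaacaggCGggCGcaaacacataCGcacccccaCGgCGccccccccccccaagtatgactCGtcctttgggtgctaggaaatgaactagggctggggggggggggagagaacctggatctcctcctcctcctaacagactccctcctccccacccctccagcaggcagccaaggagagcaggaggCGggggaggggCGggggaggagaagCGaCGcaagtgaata
Wnt4: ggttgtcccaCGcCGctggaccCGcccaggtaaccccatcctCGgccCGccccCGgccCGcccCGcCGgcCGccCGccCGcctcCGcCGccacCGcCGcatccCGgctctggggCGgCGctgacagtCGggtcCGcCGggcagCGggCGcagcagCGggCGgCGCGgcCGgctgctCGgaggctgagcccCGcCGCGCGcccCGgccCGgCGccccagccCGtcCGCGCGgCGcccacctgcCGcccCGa
The Wnt4 stretch had 85.2% G and C with 44 CpG pairs and the Lef1 stretch 66.4% with 11, beside medians of 52.4% and 6 over 32536 promoters. The other Lef1 promoters had 66.4% with 14, 50.8% with 6 and 44.8% with 5 CpG pairs. The RefSeq table matched 7 of the 10 members with 10 promoters, and held none for Wnt5a, Sfrp1 and Dkk3. Searched on both strands, the TCF/LEF words (CTTTGAA or CTTTGTT or CTTTGAT) and the AP-1 word TGANTCA had 0 matches in these 10 windows, beside 12% and 6.73% of all promoters. That says only that these letters are not in these windows.

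The genes with the most similar pattern were found by the Euclidean distance of the 4 log2 levels, each centred on its mean, over 11964 genes with a RefSeq symbol that were well above background on all arrays. For Lef1 they included Sema7a, a membrane-anchored semaphorin, and Havcr2, the receptor TIM-3, at distances of 0.17 and 0.23. Sema7a read 9.09, 8.31, 10.38 and 9.93, so it had the same order as Lef1. For Wnt5a they were Nbl1, a secreted BMP antagonist, Msl3l2, and Ccn2, the connective tissue growth factor, at 0.18, 0.20 and 0.21. Ccn2 read 11.55, 10.29, 12.49 and 11.66, which was lowest with IL17A, highest with medium and near the untreated level with both. For Wnt4 they were Trim69, P2rx5, an ATP-gated channel, and Plvap, a protein of endothelial diaphragms, at 0.19, 0.21 and 0.22. These distances describe 4 arrays and were not tested.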

How the data were processed

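Total RNA of 4 groups with 1 array each was labelled with Cy3 and hybridised to 1-colour Agilent mouse arrays, per the labels' protocols. The intensity values the authors deposited come from the scanner software (linear scale, background taken off and spatial trend removed array by array, positions on mm9), per the file headers. Deposited score columns of 0 or 1 mark each spot as clearly brighter than background, as saturated or as an outlier, per the file headers. The authors applied quantile normalization after that stage, per the series design text, and the submitters' processing notes list R 3.5.1. The thresholds of the authors' lists and the doses and times are not given in the sources used here.

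Control spots and outlier spots (126, 91, 107 and 100 on the arrays) were left out, and log2 signals were quantile normalized over the 4 arrays with limma 3.58.1 in R 4.3.3. Of 43379 non-control spots, 58.1% to 60.5% per array were well above background and none was saturated. The number of arrays limits the precision. Of 41174 probes, 28696 got their gene from a RefSeq accession (GRCm38.p6 gene table), 5761 from a current symbol, 163 from an older one and 6554 from the file's own name. The probe brightest on average stood for a gene, and 16683 of 26715 genes passed the background flag on 1 array or more. Genes counted as different at a log2 difference of at least 1 in either direction with the brighter spot well above background. The rule was tried on simulated data that held spot noise only, with changes planted in genes well above background on all arrays. That trial covers neither the limits from dim spots nor variation between cultures.

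The members, the 96-gene list and the markers were chosen with earlier results of these data known. Named were all members, per role and comparison up to 4 of the largest differences past 2-fold and the brightest gene (not all of these are given), and the 3 nearest patterns of 3 members. A gene that these rules name and a marker are not reported here. Other genes named (Ctnnb1, Wnt6, Wnt9a, Fzd7, Lrp5, Lrp6, Tcf7, Tcf7l1, Csnk1e, Wnt1, Wnt5b, Lgr4, Lgr5 and dim list members) were picked after their values were seen. The alternatives covered scaling, background correction, brightness filters, averaging of probes, a 1.5-fold limit and RefSeq-named probes only. Other steps used Python 3.11.15, pandas 2.3.3 and NumPy 2.4.6.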

Additional observations from a re-analysis of the deposited data

Results flagged for a closer look

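Sfrp2 differed by 0.11 on the log2 scale between the arrays with IL17A and ADSC medium and with ADSC medium alone, but by -0.03 between the IL17A and untreated arrays, so the IL17A difference had opposite signs with and without medium. Scaled to the array median both signs turned, to -0.11 and 0.19. The difference between these values was not tested, since each group has 1 array. The technical SD of a log2 difference at this level was 0.085.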

How the results depend on the processing

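No paired analysis was possible because each group has 1 array, and no array could be left out for the same reason. Values follow the order IL17A against untreated, both agents against medium, medium against untreated, both agents against IL17A, and both agents against untreated. The members 2-fold different (2, 1, 2, 2 and 4) were 0 in every comparison with normexp background correction, and the 96-gene counts (8, 6, 8, 4 and 11) were 3, 0, 2, 1 and 2. That correction adds an offset of 50, which by construction shrinks differences of dim probes. With the mean of probes, or with RefSeq-named probes only (chosen after seeing the data), the members for IL17A against untreated and for both against IL17A were 1 each, because Wnt5a dropped out. Genes above background on all 4 arrays left 1 member for medium against untreated and 5, 2, 5, 2 and 7 of the list. Without a filter on dim probes there were 4 members for IL17A against untreated and 4 for medium against untreated, and 14, 11, 14, 10 and 18 of the list. At 1.5-fold there were 4, 3, 4 and 4 members in the first 4 comparisons and 20, 14, 19, 22 and 22 of the list. Scaling to the 75th percentile or the median kept the member and list counts within 1.5 times. Of 211 single member values under the alternatives, 51 moved by more than the technical SD. Of the 75 whose reported difference was 2-fold or more, 75 kept their sign and 59 stayed 2-fold, while 2 values of smaller differences changed sign. Wnt4 ranged from -1.30 to -0.54 for IL17A against untreated and from -1.53 to -0.59 with medium, Lef1 from 0.79 to 1.5 and from 0.85 to 1.92 for medium without and with IL17A, and Wnt5a from -1.38 to -0.40 for IL17A against untreated.

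Over all genes, scaling to the 75th percentile changed the split of higher to lower genes from 345 to 363 to 263 to 533 for IL17A against untreated, from 460 and 292 to 724 and 171 for both against medium, from 394 and 479 to 269 and 655 for medium against untreated, and from 511 and 494 to 774 and 372 for both against IL17A. With RefSeq-named probes only, these splits were 296 and 262, 203 and 251, 346 and 278, and 227 and 329 in the same order. The larger side thus changed in each, so the all-gene shares of higher and lower genes depend on the probes used. Normexp left 1.01%, 0.603%, 0.981%, 1.22% and 1.88% of all genes 2-fold different, against 4.46%, 4.68%, 5.42%, 6.32% and 7.68%. Median scaling moved the all-gene medians to 0.21, -0.24, 0.27, -0.17 and 0.06. Signal over background limits Sfrp1, Dkk2, Dkk3, Axin2 and Wnt2.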
